A study of Mus musculus with 6 samples.

Results

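Voltage-gated sodium and calcium channel genes were examined in primary mouse cortical neurons that carried one of a pair of Ribo-STAMP variants. The rule that picks the members uses symbol and biotype and no measured value, and takes protein-coding genes for the pore-forming α and auxiliary β subunits of sodium channels and for the α1, α2δ and β subunits of calcium channels. The calcium channel γ family was left out. The rule found 32 genes among the 31053 genes listed for each library, namely 10 sodium channel α, 4 sodium channel β, 10 calcium channel α1, 4 α2δ and 4 calcium channel β genes.

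Ribo-STAMP fuses rAPOBEC1, a cytidine deaminase that turns C into U in RNA, to a ribosomal protein, so that mRNAs in contact with tagged ribosomes collect edits. The measurement is EPR, the number of edits on a gene divided by the number of reads on it. One group of 3 libraries expressed RPL10A-STAMP, in which the mouse Rpl10a ORF is joined to the C terminus of the enzyme, and the other group of 3 libraries expressed RPL22-STAMP, in which the Rpl22 ORF is joined to its N terminus. All 6 libraries came from wild-type C57BL/6J cortex of embryonic day 18. Their titles carry NT, which the paper uses for no treatment with the growth factor BDNF. In both groups the cells received floxuridine at DIV 3 against dividing cells, AAV at DIV 6 and, for the 48 h up to collection at DIV 14, doxycycline at 1 µg/ml, and a synapsin promoter drove the rtTA on which induction depends. The comparison asks how far the 2 ribosomal tags give the same EPR for the same channel gene. No library without an editing construct was analysed here, so no background EPR can be set beside these values. The paper calls the replicates biological in its figure legend and methods, and technical where it describes the correlation of EPR between them.

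Sodium channel α subunits form the pore that carries the rising phase of the action potential, and β subunits are single-pass membrane proteins that tune gating and membrane targeting. Calcium channel α1 subunits form the pore through which depolarization admits calcium, in the L, P/Q, N, R and T types. The cytoplasmic β subunits bring most α1 subunits to the membrane, and the extracellular α2δ subunits raise their number at the surface and at release sites. Cortical neurons are known to use mainly Scn1a, Scn2a, Scn3a and Scn8a among the sodium channel α genes, with Scn3a most prominent in embryonic and early postnatal brain.

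Channel genes differ in their C bases, and the sequences below show this at a site that the calcium channel α1 proteins share. Every C is marked, whether or not the enzyme can edit it. Each is the coding stretch around the selectivity filter of domain I. The 4 genes were picked because their fold changes between the variants ran in opposite directions, and of them only Cacna1b passed the threshold given below. The stretches are 30 bases long, 5′ to 3′, from the GENCODE transcript (GRCm38) with the longest coding sequence, and capitals mark C.
Cacna1a: aCCatggaaggCtggaCtgatCtCCtCtaC
Cacna1b: aCCatggagggCtggaCtgaCatCCtCtaC
Cacna1d: aCCatggagggCtggaCagatgtgCtCtaC
Cacna1h: aCaCtggagggCtgggtggaCatCatgtaC
The stretch held 9 C in Cacna1a and in Cacna1b, 7 in Cacna1d and 6 in Cacna1h. In Cacna1c and Cacna1g, not shown, it also held 7 C, and their log2 fold changes were negative where that of Cacna1d was positive. Any part of C content in the fold changes was not tested. Whether any of these bases was edited is not known, since EPR sums over a whole gene. Over the whole coding sequence, C made up 31.4% of bases in Cacna1a, 28.45% in Cacna1b, 25.42% in Cacna1d and 31.5% in Cacna1h. The short stretch thus does not give the order of these genes in C content, and Cacna1h, lowest in it, was highest of them over the coding sequence.

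Of the 32 channel genes, 23 had an EPR above 0 in all 6 libraries and are called edited throughout. A value of 0 can mean no edits or no reads. Between 23 and 26 channel genes were edited in a library, or 71.9% to 81.3% of them, against 43.8% to 49.5% of all protein-coding genes. The mean number per library was lower by 1 gene with RPL10A-STAMP, and the libraries of the variants overlapped. Scn10a was edited in 5 libraries, with values from 0.00565 to 0.0154, and was at 0 in RPL10A-STAMP replicate 3. Scn9a was edited in 2 libraries, at 0.0103 in RPL10A-STAMP replicate 2 and 0.0227 in RPL22-STAMP replicate 3. Cacna2d4 was edited in 1 library (0.0133, RPL22-STAMP replicate 2). The 5 genes at 0 in every library were the skeletal muscle channels Scn4a and Cacna1s, the retinal channel Cacna1f, and Scn7a and Scn11a. Members known mainly from brain were thus edited throughout, and the members at 0 are known mainly from muscle, retina or peripheral neurons and glia. The split was not complete, since Scn10a, Scn9a and Cacna2d4 were edited in some libraries only. Cacnb1, a β subunit known from skeletal muscle though not only from there, was edited throughout.

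Several of these sodium channel genes lie next to each other on chromosome 2 (GRCm38). Scn3a (ENSMUSG00000057182) spans 65457118 to 65567627 on the minus strand, Scn2a (ENSMUSG00000075318) 65620771 to 65767447 on the plus strand, and Scn1a (ENSMUSG00000064329) 66270778 to 66440840 on the minus strand. Scn9a and Scn7a follow them on the same chromosome, whereas Scn8a (ENSMUSG00000023033) lies on chromosome 15 from 100869858 to 101045938. Reads that lie within a stretch shared by these paralogs cannot tell them apart. The read length is not given in the sources used here, so a length of 50 bases was taken. Of the 50-base stretches of the Scn3a transcript, 8.53% also occur in transcripts of other channel genes, against 7.73% for Scn2a, 5.48% for Scn1a and 0.0527% for Scn8a. The longest coding run shared without a mismatch was 188 bases between Scn1a and Scn2a and 143 bases between Scn3a and either of them. Reads could map to up to 10 places, so EPR of these 3 genes may hold some uncertainty that Scn8a does not share to the same extent. How many such reads entered the EPR is not known.

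For the comparison of the variants, the 8046 genes edited throughout were tested. Libraries were scaled to a common median over these genes, and limma was fitted to log2 of this scaled EPR plus 0.01. Fold changes are RPL10A-STAMP over RPL22-STAMP and adjusted p values cover all 8046 genes, with a threshold of 0.05. Past that threshold lay 5 of the 23 channel genes (21.7%), against 14.3% of all genes tested. Scn3a, Scn2a, Cacna2d1 and Cacnb4 were higher with RPL10A-STAMP (background 8.51%), and Cacna1b was higher with RPL22-STAMP (background 5.77%). The median log2 fold change was 0.03 over the 23 channel genes and -0.01 over all genes tested. Without replicate 2 or without replicate 3 of RPL10A-STAMP, 2 of the 23 passed, beside 5.32% and 4.59% of all genes. Without RPL22-STAMP replicate 2, 3 passed, beside 9.27% of all genes. In bulk libraries, fewer edits per read in every cell and edits in fewer cells cannot be told apart.

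**Figure D1:**
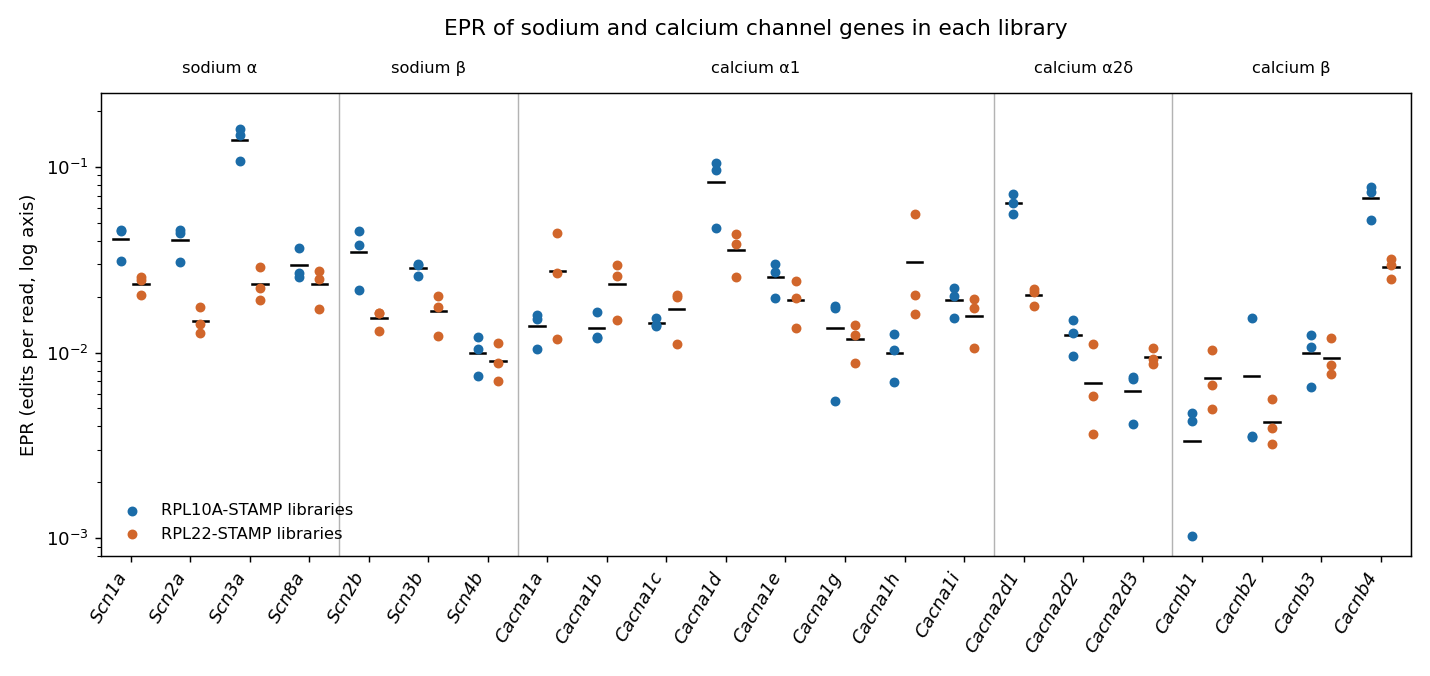
EPR (edits per read, log axis) of 22 channel genes edited in all 6 libraries, grouped by subunit family. Each point is a library as deposited and each bar the mean of 3 libraries. Scn3a stands highest with RPL10A-STAMP at 0.107 to 0.160, whereas with RPL22-STAMP it lies among the other sodium channel α genes.

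Scn3a showed the largest difference among the channel genes. Values are given in the order of replicates 1, 2 and 3. With RPL10A-STAMP its EPR was 0.107, 0.160 and 0.149. The RPL22-STAMP libraries stood at 0.0192, 0.0222 and 0.0287. The lowest RPL10A-STAMP library thus lay well above the highest RPL22-STAMP library. Mean EPR was 0.139 ± 0.0278 against 0.0234 ± 0.00486 (SD, n = 3 each), and the scaled means differed 4.49-fold. The log2 fold change was 1.83 (standard error 0.16, 95% interval 1.45 to 2.21, limma adjusted p = 0.00444). Among the genes tested, Scn3a ranked between the 98.6th and 98.8th percentile of each RPL10A-STAMP library and between the 77.4th and 87.8th of each RPL22-STAMP library. It passed the threshold under all 17 alternative settings, with log2 fold changes from 1.54 to 2.18.

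Scn2a, the main sodium channel of early axon initial segments, moved the same way by a smaller amount. Its EPR was 0.0308, 0.0455 and 0.0441 with RPL10A-STAMP, against 0.0127, 0.0176 and 0.0142 with RPL22-STAMP. These groups did not overlap, with means of 0.0401 ± 0.00809 and 0.0148 ± 0.00252 (SD, n = 3 each). After scaling, the means differed 2.06-fold (log2 fold change 0.73, standard error 0.13, limma adjusted p = 0.0128). The call was lost when the trend with transcript GC content was removed (limma adjusted p = 0.0551). Leaving out RPL10A-STAMP replicate 2 gave a limma adjusted p of 0.0542, and leaving out replicate 3 of that variant gave 0.0566.

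The other 2 brain α subunits did not pass the test. Scn1a, a sodium channel of fast-spiking interneurons, had an EPR of 0.0311, 0.0452 and 0.0459 with RPL10A-STAMP, against 0.0203, 0.0254 and 0.0245 with RPL22-STAMP. Its groups did not overlap, but the log2 fold change was 0.30 with an interval from -0.0026 to 0.60 (limma adjusted p = 0.165). It was 0.59 without scaling and 0.049 with the GC trend removed, and passed in neither case. Scn8a, the main channel of mature nodes and initial segments, had 0.0255, 0.0269 and 0.0367 against 0.0172, 0.0276 and 0.0250. Its groups overlapped, and its log2 fold change was -0.02 with an interval from -0.34 to 0.30 (limma adjusted p = 0.942). The sign for Scn8a turned without scaling, to 0.26.

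Ratios of 1 channel gene to another within a library do not depend on the scaling, and they too differed between the variants. The gene pairs were picked after their values were seen, so the ratios are given as a description with no test. Scn3a had 4.22, 5.97 and 4.05 times the EPR of Scn8a with RPL10A-STAMP, against 1.12, 0.803 and 1.15 times with RPL22-STAMP. Against Scn1a it had 3.46, 3.55 and 3.24 times the EPR with RPL10A-STAMP, against 0.949, 0.873 and 1.17 times with RPL22-STAMP. With RPL22-STAMP the ratios thus lay near 1, and with RPL10A-STAMP Scn3a stood above both other genes. Scn2a had 1.21, 1.69 and 1.20 times the EPR of Scn8a with RPL10A-STAMP, against 0.735, 0.637 and 0.568 times with RPL22-STAMP, so the order of these genes turned over between the variants.

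**Figure D2:**
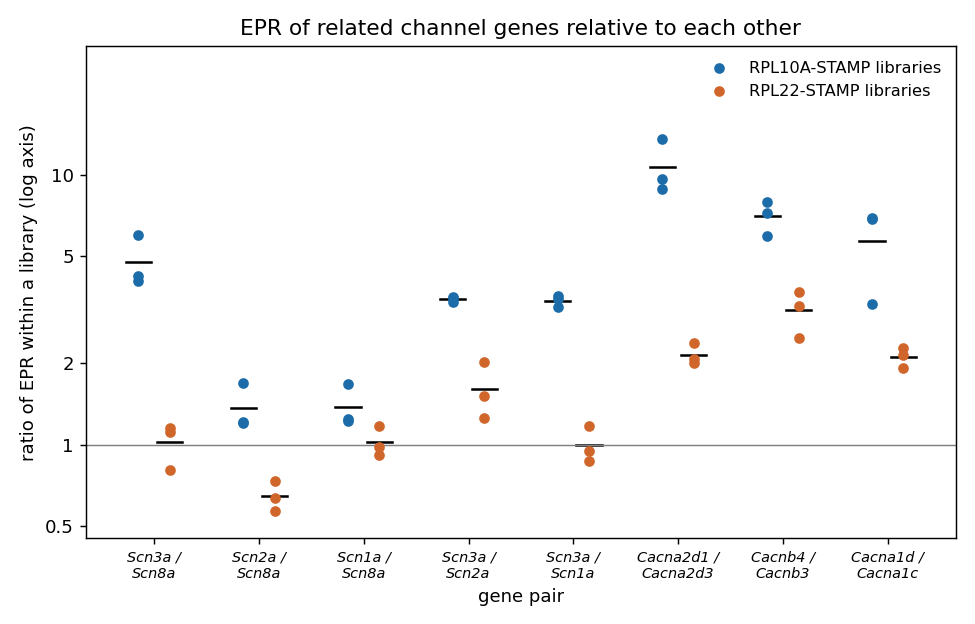
Ratio of EPR between related channel genes within a library (log axis), for 8 gene pairs chosen after their values were seen. Points are libraries, bars are means of 3, and the grey line marks equal EPR. In each pair the 3 RPL10A-STAMP libraries lie above the 3 RPL22-STAMP libraries.

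Sodium channel β genes did not pass the threshold. Scn2b, which is linked to the α subunit by a disulphide bond, came closest, with 0.0216, 0.0380 and 0.0452 against 0.0131, 0.0164 and 0.0164 (log2 fold change 0.52, limma adjusted p = 0.0746). Its libraries did not overlap. Scn3b, a noncovalently bound subunit, had 0.0258, 0.0300 and 0.0295 against 0.0123, 0.0201 and 0.0177 (log2 fold change 0.28, limma adjusted p = 0.190). Its libraries did not overlap either. Scn4b, known from resurgent sodium current, had 0.00746, 0.0104 and 0.0121 against 0.00702, 0.00879 and 0.0113 (log2 fold change -0.12, limma adjusted p = 0.571). For Scn4b the libraries of the variants overlapped. Over the 8 sodium channel genes edited throughout, 2 passed and the median log2 fold change was 0.29.

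Among the 8 calcium channel α1 genes edited throughout, 1 passed the threshold and the median log2 fold change was -0.24. Cacna1b (ENSMUSG00000004113, chromosome 2, 24603887 to 24763152, minus strand, GRCm38) encodes the pore of N-type channels, which trigger transmitter release. Its EPR was 0.0119, 0.0122 and 0.0165 with RPL10A-STAMP, against 0.0149, 0.0257 and 0.0295 with RPL22-STAMP. These values overlapped, at RPL22-STAMP replicate 1. After scaling, the highest RPL10A-STAMP library was at 0.0128 and the lowest RPL22-STAMP library at 0.0206, so the groups did not overlap. The scaled means differed 2.22-fold, higher with RPL22-STAMP (log2 fold change -0.72, standard error 0.16, limma adjusted p = 0.0302). The call was kept under 6 of the 17 alternative settings and lost without scaling (limma adjusted p = 0.191) and with the GC trend removed (limma adjusted p = 0.122). It was also lost without RPL10A-STAMP replicate 1 (0.0727), replicate 2 (0.102) or replicate 3 (0.0854) and without RPL22-STAMP replicate 2 (0.0686) or replicate 3 (0.0732), all limma adjusted p values.

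Other α1 genes of presynaptic and low-voltage channels had negative log2 fold changes that did not pass. Cacna1a, the P/Q-type pore, had 0.0105, 0.0151 and 0.0159 against 0.0118, 0.0438 and 0.0269 (log2 fold change -0.80, limma adjusted p = 0.0751). Cacna1h, a T-type pore, had 0.00694, 0.0104 and 0.0126 against 0.0161, 0.0205 and 0.0559 (log2 fold change -1.15, limma adjusted p = 0.0598). Scaled EPR did not overlap for either gene, and RPL22-STAMP replicate 3 stood far above the other libraries for Cacna1h. Without that library the log2 fold change of Cacna1h was -0.75 and passed (limma adjusted p = 0.0396), and without RPL22-STAMP replicate 1 Cacna1a passed (limma adjusted p = 0.0184). Neither gene passed with any other library left out. Of the 17 alternative settings, Cacna1a passed in 2 and Cacna1h in 4. With the GC trend removed, the log2 fold change was -0.46 for Cacna1a (limma adjusted p = 0.271) and -0.78 for Cacna1h (limma adjusted p = 0.169). The remaining T-type pores had log2 fold changes nearer to 0. Cacna1g had 0.0174, 0.00547 and 0.0177 against 0.0125, 0.0140 and 0.00877 (log2 fold change -0.13, limma adjusted p = 0.779), and Cacna1i had 0.0154, 0.0223 and 0.0202 against 0.0106, 0.0194 and 0.0174 (log2 fold change -0.05, limma adjusted p = 0.848). The libraries of the variants overlapped for both.

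L-type and R-type pores did not pass either. Cacna1d, an L-type channel that opens at relatively negative potentials, had 0.0470, 0.105 and 0.0955 against 0.0255, 0.0436 and 0.0384 (log2 fold change 0.65, limma adjusted p = 0.0810). It was the α1 gene with the highest mean EPR with both variants, and its libraries did not overlap. Among the 17 alternative settings it passed in 1, without RPL10A-STAMP replicate 1 (limma adjusted p = 0.0392). Leaving out any other library gave limma adjusted p values from 0.133 to 0.212. Cacna1c, the other brain L-type channel, had 0.0141, 0.0154 and 0.0138 against 0.0111, 0.0204 and 0.0200 (log2 fold change -0.36, limma adjusted p = 0.160). Within a library Cacna1d had 3.33, 6.85 and 6.91 times the EPR of Cacna1c with RPL10A-STAMP, against 2.29, 2.14 and 1.92 times with RPL22-STAMP. The groups did not overlap in this ratio. Cacna1e, the R-type pore, had 0.0196, 0.0299 and 0.0271 against 0.0136, 0.0196 and 0.0242, with overlapping libraries and a log2 fold change of 0.03 (interval -0.33 to 0.39, limma adjusted p = 0.924).

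Of the 3 α2δ genes edited throughout, Cacna2d1 was higher with RPL10A-STAMP. This gene (ENSMUSG00000040118, chromosome 5, 15934691 to 16374511, plus strand, GRCm38) encodes the binding site of gabapentin. Its EPR was 0.0557, 0.0638 and 0.0710 with RPL10A-STAMP, against 0.0178, 0.0219 and 0.0212 with RPL22-STAMP, with means of 0.0635 ± 0.00766 and 0.0203 ± 0.00219 (SD, n = 3 each). The groups were far apart. The scaled means differed 2.38-fold (log2 fold change 0.98, standard error 0.13, 95% interval 0.68 to 1.28, limma adjusted p = 0.00533). The call was kept under 16 of the 17 alternative settings. Cacna2d3, a paralog, had 0.00410, 0.00723 and 0.00740 against 0.00862, 0.00922 and 0.0106, with no overlap in the opposite direction (log2 fold change -0.45, limma adjusted p = 0.0574). Without the pseudocount of 0.01 its log2 fold change was -1.04, which did not pass (limma adjusted p = 0.0675). The ratio of Cacna2d1 to Cacna2d3 was 13.6, 8.83 and 9.61 with RPL10A-STAMP, against 2.07, 2.38 and 2.01 with RPL22-STAMP. Cacna2d2 had 0.0150, 0.00964 and 0.0128 against 0.00364, 0.00585 and 0.0110 (log2 fold change 0.27, limma adjusted p = 0.429), and its scaled libraries overlapped.

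Of the 4 calcium channel β genes, Cacnb4 was higher with RPL10A-STAMP. The gene (ENSMUSG00000017412, chromosome 2, 52428320 to 52676831, minus strand, GRCm38) is the one mutated in the lethargic mouse. Its EPR was 0.0519, 0.0777 and 0.0735 with RPL10A-STAMP, against 0.0250, 0.0317 and 0.0297 with RPL22-STAMP, and these groups did not overlap. The scaled means differed 1.78-fold (log2 fold change 0.67, standard error 0.13, limma adjusted p = 0.0194). The call was kept under 10 of the 17 alternative settings and lost with the GC trend removed (limma adjusted p = 0.179). It was also lost without RPL10A-STAMP replicate 2 (0.0775) or replicate 3 (0.0710) and without RPL22-STAMP replicate 2 (0.0531) or replicate 3 (0.0513), all limma adjusted p values. Of the 50-base stretches of its transcript, 16.6% occur in transcripts of other genes, 0.0489% in those of channel genes.

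The remaining β genes had low EPR and did not pass. Cacnb1 had 0.00429, 0.00103 and 0.00470 against 0.0103, 0.00670 and 0.00496 (log2 fold change -0.51, limma adjusted p = 0.139). Cacnb2 had 0.00351, 0.00355 and 0.0153 against 0.00320, 0.00560 and 0.00392 (log2 fold change 0.09, limma adjusted p = 0.805). Cacnb3 had 0.00652, 0.0107 and 0.0124 against 0.00763, 0.00858 and 0.0120 (log2 fold change -0.17, limma adjusted p = 0.474). Libraries did not overlap for Cacnb1, overlapped for the other 2, and RPL10A-STAMP replicate 3 alone stood high for Cacnb2. The pseudocount of 0.01 is above most of these values. Without it the log2 fold change was -1.74 for Cacnb1, -0.34 for Cacnb3 and still 0.09 for Cacnb2, and none of them passed. Within a library, Cacnb4 had 7.95, 7.23 and 5.94 times the EPR of Cacnb3 with RPL10A-STAMP, against 3.28, 3.69 and 2.48 times with RPL22-STAMP.

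**Figure D3:**
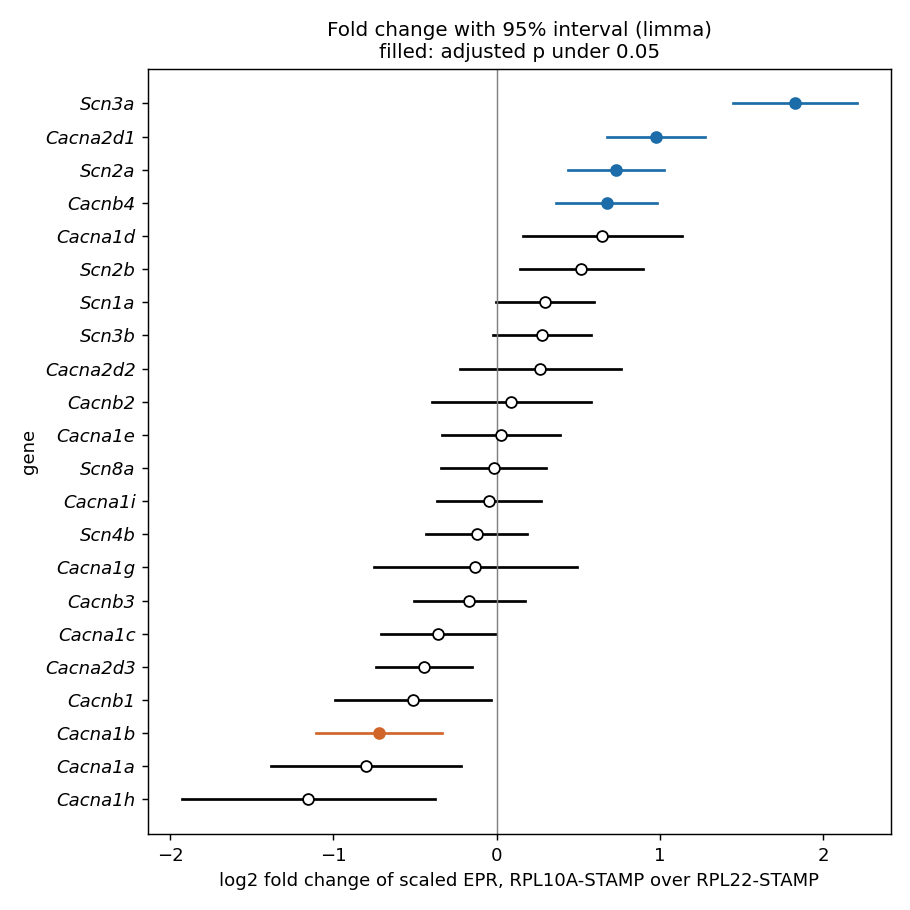
Log2 fold change of scaled EPR, RPL10A-STAMP over RPL22-STAMP, for 22 channel genes, with 95% intervals from limma. Filled points passed the adjusted p threshold of 0.05, blue where higher with RPL10A-STAMP and orange where higher with RPL22-STAMP. Scn3a at 1.83 lies apart from the rest, and the 3 lowest points are Cacna1b, Cacna1a and Cacna1h.

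Scaled EPR of 14 channel genes did not overlap between the variants, against 37.1% of all genes tested. Of these, 8 lay higher in every RPL10A-STAMP library (background 20%) and 6 in every RPL22-STAMP library (background 17.1%), and 9 genes overlapped. The first 8 were Scn1a, Scn2a, Scn3a, Scn2b, Scn3b, Cacna1d, Cacna2d1 and Cacnb4. The 6 were Cacna1a, Cacna1b, Cacna1c, Cacna1h, Cacna2d3 and Cacnb1. Of the 8 sodium channel genes 5 were in the first set and none in the second, while of the 15 calcium channel genes 3 were in the first and 6 in the second. The families also differed in median transcript GC content, 49.2% for the sodium and 55.0% for the calcium channel genes. The part of GC content in this split was not tested. On EPR as deposited the same first 8 genes stayed apart, against 28.2% of all genes tested, and in the other direction 3 did, Cacna1h, Cacna2d3 and Cacnb1 (background 6.21%).

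The order of EPR among channel genes also differed between the variants. EPR is already divided by the reads of a gene, so it says nothing of RNA level, and it was not further divided by length. With RPL10A-STAMP the mean EPR fell from Scn3a through Cacna1d, Cacnb4 and Cacna2d1 to Scn1a, and Cacnb1 was lowest. Of the 22 pairs of neighbours in that order 3 did not overlap between genes, namely Scn3a and Cacna1d, Cacna2d1 and Scn1a, and Cacna1i and Cacna1c. With RPL22-STAMP the order began with Cacna1d, Cacna1h, Cacnb4 and Cacna1a and ended with Cacnb2, and 0 of the 22 pairs of neighbours were apart. The most edited channel gene was Scn3a in every RPL10A-STAMP library, and Cacna1d, Cacna1a and Cacna1h in RPL22-STAMP replicates 1, 2 and 3.

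As a group, channel genes were edited somewhat more than the median gene, and by a wider margin with RPL22-STAMP. In RPL10A-STAMP libraries the median EPR of the 23 genes was 0.0154, 0.0154 and 0.0177, beside 0.0120, 0.0153 and 0.0161 over all genes tested. In RPL22-STAMP libraries it was 0.0125, 0.0196 and 0.0177, beside 0.00907, 0.0129 and 0.0112. The channel median was therefore 1.29, 1.01 and 1.10 times that of all genes with RPL10A-STAMP and 1.38, 1.52 and 1.57 times with RPL22-STAMP, without overlap. Of the 23 genes, 14, 12 and 13 lay above the median gene with RPL10A-STAMP, against 18, 16 and 17 with RPL22-STAMP. On the scaled values the difference between the variants in the channel median was -0.00451, but the mean over the same genes differed by 0.00643 in the other direction, with Scn3a and a few others high with RPL10A-STAMP. These are descriptions, with no test over the members.

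The fold changes of channel genes went with the base composition of their transcripts. Over the 23 genes, log2 fold change and transcript GC content had a Spearman correlation of -0.745 (Pearson -0.703), and over 8039 genes tested the Spearman correlation was -0.467. These are correlations across genes of the same 6 libraries and have no p. Of the 10 channel genes under 50% GC, 9 had a log2 fold change above 0 (median 0.47). Of the 13 at 50% or more, 3 did (median -0.13). Among all genes the corresponding shares above 0 were 63.6% and 29.4%. Scn3a had 42.1% GC, Scn1a 43.3%, Scn2a 43.4% and Scn8a 50.8%, whereas Cacna1b had 55.6%, Cacna1a 58.4% and Cacna1h 59.95%. Scn1a and Scn2a thus had nearly equal GC content and log2 fold changes of 0.30 and 0.73 (0.049 and 0.49 with the GC trend removed), a difference that was not tested. In Cacnb4, with 40.5% GC over the transcript, the coding sequence had 51.0%. With the GC trend removed from each library, Scn3a and Cacna2d1 passed the threshold, 2 of 23 against 8.25% of all genes. The log2 fold changes were then 1.54 (limma adjusted p = 0.00863) and 0.83 (limma adjusted p = 0.0151). The part of base composition in the other differences was not tested.

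**Figure D4:**
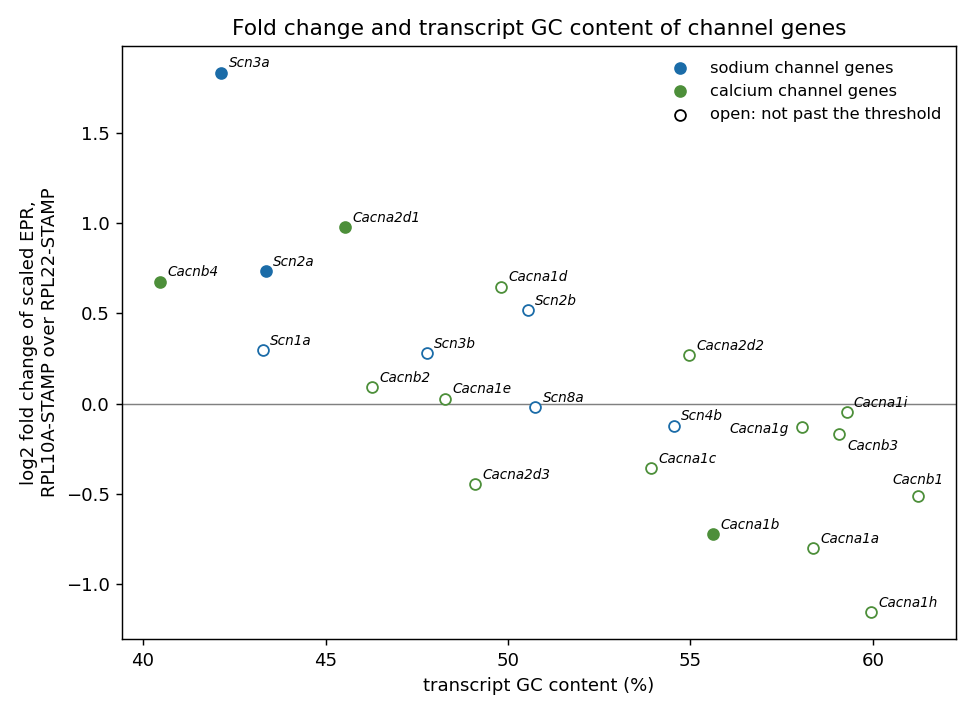
Log2 fold change of scaled EPR, RPL10A-STAMP over RPL22-STAMP, against transcript GC content in percent for 22 channel genes. Blue points are sodium and green points calcium channel genes, and filled points passed the adjusted p threshold of 0.05. Of the 10 genes under 50% GC, 9 lie above 0, and Cacna2d3 is the exception.

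A list of 42 partner genes held those for proteins that bind, cluster or regulate these channels. It also held Nalcn, Unc79, Unc80 and Fam155a, which belong to the separate sodium leak channel complex. Of the 42 genes, 36 were edited throughout and 11 passed the threshold, 5 higher with RPL10A-STAMP and 6 with RPL22-STAMP (median log2 fold change -0.19). That is 30.6% of the 36, against 14.3% of all genes tested, in a list chosen with earlier results known. Fgf14, an intracellular partner of the sodium channel tail, had 0.0552, 0.112 and 0.0747 against 0.0125, 0.0225 and 0.0180 (log2 fold change 1.39, limma adjusted p = 0.00637). Its homologue Fgf13 had 0.0395, 0.0436 and 0.0555 against 0.0178, 0.0202 and 0.0187 (log2 fold change 0.66, limma adjusted p = 0.0232). Nalcn, the pore of the sodium leak channel and a relative of the α1 subunits, had 0.0309, 0.0387 and 0.0461 against 0.00917, 0.0133 and 0.0103 (log2 fold change 0.95, limma adjusted p = 0.00527). Unc80, which belongs to the Nalcn complex, and Ank2, an ankyrin, were also higher with RPL10A-STAMP. For Fgf14, Fgf13 and Nalcn the groups did not overlap.

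In the opposite direction, Cacng7, a calcium channel γ-family member that also acts on AMPA receptors, had 0.0201, 0.0274 and 0.0243 against 0.0398, 0.0609 and 0.0588 (log2 fold change -1.18, limma adjusted p = 0.00453). Calm3, a calmodulin gene, had 0.0241, 0.0258 and 0.0250 against 0.0298, 0.0440 and 0.0408 (log2 fold change -0.74, limma adjusted p = 0.0156). Camk2a, a kinase that calmodulin activates, had a log2 fold change of -0.79 (limma adjusted p = 0.0127), which was -0.45 without scaling and did not pass (limma adjusted p = 0.255). Its call was also lost with the GC trend removed (0.0572) and without RPL10A-STAMP replicate 2 (0.0520) or replicate 3 (0.0619), all limma adjusted p values. All 3 had no overlap between the groups. Calm2, Stx1a and Prkaca also passed, though for Stx1a the libraries overlapped on EPR as deposited and were apart only after scaling. The Calm3 call was lost without scaling (limma adjusted p = 0.183), with the GC trend removed (0.107) and without RPL10A-STAMP replicate 2 (0.0634) or replicate 3 (0.0694). Fgf13 kept its call under 8 of the 17 alternative settings and lost it with the GC trend removed (limma adjusted p = 0.0572). Among the libraries left out in turn, it kept the call only without RPL22-STAMP replicate 1. For the others the limma adjusted p values ran up to 0.0895. Of 94 potassium channel genes, 45 were edited throughout and 6 passed (13.3%, near the 14.3% of all genes tested), 5 of them higher with RPL10A-STAMP, with a median log2 fold change of -0.13.

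Markers of cell types were read for edits only, since EPR does not give RNA level and cannot show how many cells of a type were present. All 9 neuronal markers were edited throughout, with summed EPR of 0.187 to 0.242 in RPL10A-STAMP libraries and 0.155 to 0.177 in RPL22-STAMP libraries. Of 6 astrocyte markers, 4 were edited throughout (summed EPR 0.171 to 0.254 and 0.103 to 0.226). Of 7 oligodendrocyte markers 1 was, with Mog, Mag and Cspg4 at 0 in every library (0.00358 to 0.0886 and 0.0352 to 0.0762). Of 5 microglial markers none was, and 4, Aif1, Csf1r, P2ry12 and Tmem119, were at 0 in every library. The 3 endothelial markers Cldn5, Flt1 and Pecam1 were at 0 in every library. Summed EPR of neuronal markers was higher in every RPL10A-STAMP library as deposited. On the scaled values that the channel results use, it was 0.170 to 0.198 with RPL10A-STAMP against 0.171 to 0.214 with RPL22-STAMP and overlapped.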

How the data were processed

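Bulk RNA-seq libraries of polyA RNA from primary cortical neurons were used, 3 per variant. The authors used cutadapt to trim the reads, STAR to align them to mm10, SAILOR for the edits and featureCounts for reads per gene, and deposited 1 ratio per gene, EPR, not normalized between libraries. The gene annotation is not given in the sources used here. The reads behind each ratio are unknown, so no counting interval could be given.

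Symbols, biotypes and sequences came from GENCODE mouse release 21 (31011 of 31053 identifiers matched). Scaling took the 8046 genes edited throughout, set every library to the same median over them, and placed that median at the geometric mean of all 6. Scaled EPR plus 0.01 was tested on the log2 scale in R 4.3.3 by limma 3.58.1, using a variance trend and Benjamini-Hochberg adjustment over all 8046 genes. Fold changes on this scale can understate those of low genes. As nothing in the labels ties the libraries to separate cultures, p values measure only the spread between these samples, which may be technical.

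Members and lists were chosen with earlier results of these data known. Values were given for every member past the threshold, the brain α and α1 subunits, the auxiliary subunits edited throughout, and the 3 highest and 3 lowest members, and, among partners, for up to 6 past the threshold with the largest changes. The values of 2 members, and 1 set of sequences, are not reported here, while counts, medians and correlations cover all members. Nalf1 was not found under that name, but is counted among the partners under its other name, Fam155a. Groups came from the sample titles. Alternatives covered the filter, pseudocount, scaling, replicate number, GC content (spline with 4 degrees of freedom), length, variance trend and each library left out. Figures used matplotlib 3.10.9.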

Additional observations from a re-analysis of the deposited data

How the results depend on the processing

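Over 17 alternative settings, the 22 channel genes with values gave 374, of which 317 kept their direction and their side of the threshold, 23 lost a call, 7 gained one and 27 changed sign, in 7 genes that never passed. The number of channel genes past the threshold, 5, was 3 with the replicate number as a block (replicate block, limma; adjusted p = 0.0627 for Cacnb4 and 0.0631 for Cacna1b, both lost), 2 with the GC content trend removed, 1 with both, and 2 to 6 with each library left out in turn. Scn3a passed in each of these. The numbers are not shown to pair libraries: deviations of same-numbered libraries correlated at 0.0437, 0.0464 and -0.0055. Over all genes, 1149 calls became 754 and 569 with wider filters, 603 with the block, 663 with the GC trend removed, 227 with both, and 369 to 873 with a library left out. Leaving scaling out moved the median log2 fold change of all genes from -0.01 to 0.18, and moved the channel median difference from -0.00451 to -0.000431, and taking the mean over genes gave 0.00643. Signs turned without scaling for Cacna1g (0.071), Cacna1i (0.19), Cacnb3 (0.031), Scn4b (0.069) and Scn8a (0.26). They turned with the GC trend removed, with or without the block, for Cacna1g (0.20), Cacna1i (0.31), Cacnb2 (-0.024), Cacnb3 (0.19), Scn4b (0.12) and Scn8a (0.073), and for Cacna1e with quantile normalization (-0.017) and with the length trend removed (-0.24). With a library left out the log2 fold changes ran from -0.036 to 0.15 for Cacna1e, -0.33 to 0.15 for Cacna1g, -0.13 to 0.00079 for Cacna1i, -0.14 to 0.23 for Cacnb2 and -0.073 to 0.057 for Scn8a. The cause was not tested. With no reads per gene, the precision of low EPR values cannot be judged beyond the spread of 3 libraries.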
